A study of Mus musculus with 24 samples.

Results

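The 39 genes described here are those by which fat macrophages and their blood monocyte precursors are commonly recognised. They were taken as a fixed list of symbols, and each symbol matched 1 of the 30699 gene identifiers in the 4 deposited tables. They were followed in 2 tissues, WAT (white adipose tissue) and BAT (brown adipose tissue). The C57BL/6 animals had been given LNA-modified oligonucleotides, short strands locked into a shape that grips a microRNA, by 2 subcutaneous injections at 25 mg/kg. The oligonucleotide was antimiR-224, directed against miR-224, antimiR-452, directed against miR-452, or scramblemiR, a scrambled sequence. Animals of all 3 treatments therefore carried an LNA oligonucleotide, and no group was left uninjected. Each treatment had 4 libraries of each tissue, which makes 6 groups and 24 libraries. The sources used here give neither the age, sex and diet of the animals, nor the depot of the white fat, nor the time between injection and collection, and they do not say that every library came from its own mouse. P-values therefore measure the spread between these libraries, which may be technical in part. The questions were how far the macrophage genes differed between the tissues and whether either inhibitor altered them.

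Macrophages of adipose tissue clear dead adipocytes, take up surplus lipid and iron and secrete signals that act on the surrounding fat cells. Resident cells near vessels carry scavenger receptors such as CD163 and LYVE1. Cells that gather around dying adipocytes in obesity carry TREM2, GPNMB and CD11c, and inflammatory monocytes enter by way of the chemokine receptor CCR2. Several listed genes are also used by other cells of fat: Lyve1 by lymphatic endothelium, Itgax by dendritic cells, Itgam, Fcgr3 and Lyz2 by neutrophils, and Lgals3 by many cell types. In bulk tissue, fewer macrophages and less RNA per macrophage cannot be told apart.

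The mature strands below are shown because the inhibitors were directed against them. Both lie on the minus strand of the X chromosome, at chrX:72261085-72261105 for miR-224 and chrX:72262271-72262292 for miR-452 (RefSeq, GRCm38.p6). The labels name no arm, and the 5p strands are printed 5′ to 3′ with the seed, bases 2 to 8, in capitals.
mmu-miR-224-5p: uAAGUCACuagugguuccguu
mmu-miR-452-5p: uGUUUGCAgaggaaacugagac

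Sites in the 3′ UTR that pair with a seed are shown next, because they mark the members that either microRNA could contact. The 3′ UTRs of GENCODE vM21, on the GRCm38 build, were searched on the transcribed strand for GTGACTT, which pairs with the miR-224 seed, and for TGCAAAC, which pairs with the miR-452 seed. The first was present in 5 of 39 members, 12.8%, against 12.7% of 20998 genes. The second was present in 3 of 39, 7.69%, against 9.68% of these genes. The members' shares were thus close to those of all genes. Their 3′ UTRs were shorter, with a median of 519 bases against 953.5, and the shares are not corrected for length. Cybb held both, at bases 526 and 738 of a 3′ UTR of 2965 bases. Sites are printed 5′ to 3′ with the paired letters in capitals, and a match is a description of the sequence.
Cybb, miR-224: tgatgctgatgGTGACTTaatac
Lyve1, miR-224: ggagagcctggGTGACTTgagac
Timd4, miR-224: tttgtggctagGTGACTTttcac
F13a1, miR-224: atgccttgggaGTGACTTaggtc
Msr1, miR-224: catcaacacaaGTGACTTctggg
Cybb, miR-452: gaacaaatagaTGCAAACattca
Mpeg1, miR-452: cttctgaactgTGCAAACaagtc
Cx3cr1, miR-452: gaccagatgccTGCAAACcaacc

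Promoters are shown for 4 members whose transcripts were more abundant in WAT than in BAT and whose windows hold the motif marked below. They are C1qb (chr4:136886151-136886450, minus strand) and C1qc (chr4:136892865-136893164, minus strand), neighbouring genes for chains of complement C1q, Mrc1 (chr2:14229164-14229463, plus strand) and Marco (chr1:120504975-120505274, minus strand). Each window runs from 250 bases before to 50 bases after the start (RefSeq, GRCm38.p6) and is printed on the gene's strand, 5′ to 3′. Capitals mark GAGGAA, or TTCCTC where it lies on the other strand. These letters form the core of many sites of PU.1, the factor encoded by Spi1. RefSeq windows were found for 29 members, and 18 of these genes, 62.1%, held the motif on either strand in at least 1 window. It was in 31.3% of 27025 genes. Windows of other members higher in WAT, such as Lyz2, Cd163 and Ccr2, did not hold it. A match is not evidence of binding.
C1qb: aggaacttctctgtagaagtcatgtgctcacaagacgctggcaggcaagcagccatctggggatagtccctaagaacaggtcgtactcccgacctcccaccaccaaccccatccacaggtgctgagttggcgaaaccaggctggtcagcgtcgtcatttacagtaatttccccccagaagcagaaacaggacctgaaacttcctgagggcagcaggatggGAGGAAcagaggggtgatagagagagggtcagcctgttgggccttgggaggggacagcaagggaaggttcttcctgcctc
C1qc: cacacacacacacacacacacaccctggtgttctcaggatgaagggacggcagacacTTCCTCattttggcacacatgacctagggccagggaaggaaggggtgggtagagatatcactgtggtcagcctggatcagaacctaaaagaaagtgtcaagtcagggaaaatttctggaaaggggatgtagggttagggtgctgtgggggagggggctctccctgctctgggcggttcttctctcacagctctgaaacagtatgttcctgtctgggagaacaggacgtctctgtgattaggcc
Mrc1: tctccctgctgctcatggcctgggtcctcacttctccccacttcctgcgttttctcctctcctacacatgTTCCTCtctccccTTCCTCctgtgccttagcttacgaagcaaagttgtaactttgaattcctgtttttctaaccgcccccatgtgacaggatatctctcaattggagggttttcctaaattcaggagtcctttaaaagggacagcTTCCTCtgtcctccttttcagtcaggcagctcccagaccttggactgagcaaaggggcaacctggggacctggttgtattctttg
Marco: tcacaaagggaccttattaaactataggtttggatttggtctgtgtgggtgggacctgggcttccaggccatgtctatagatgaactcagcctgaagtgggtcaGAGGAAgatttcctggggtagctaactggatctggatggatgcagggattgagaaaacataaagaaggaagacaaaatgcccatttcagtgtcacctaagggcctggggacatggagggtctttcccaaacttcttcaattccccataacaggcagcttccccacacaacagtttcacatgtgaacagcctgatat

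The member windows also held a median of 3 CpG dinucleotides and 45.3% G and C, against 7 and 52.7% in the windows of all genes. No window was found for Csf1r, Spi1, Adgre1, C1qa, Tyrobp, Lyve1, Msr1, Siglec1, Clec10a or Cd14.

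Whole read numbers of each library were recovered from the deposited group means, for all 39 members in all 24 libraries, and levels are given as normalized counts, the reads of a library divided by its size factor. Libraries are numbered within a group by falling size factor, and no number stands for a replicate number of the labels. The scramblemiR libraries held 22175430 to 27935908 reads in genes in WAT and 16960694 to 20255777 in BAT. The tissues matched their labels: Ucp1, the uncoupling protein of brown adipocytes, had 0.776 to 133 normalized counts in WAT controls and 59027 to 176328 in BAT controls. Wt1, a gene of the mesothelium over visceral fat, had 125.6 to 604 in WAT controls and 0 in every BAT control. Some libraries stood apart by genes of other cells, in geometric means over a marker list. Simple epithelium genes were at 607 and 892 in WAT antimiR-224 libraries 1 and 2 and at 414, 647 and 486 in WAT antimiR-452 libraries 1 to 3, against 9.92 to 126 in WAT scramblemiR. Spermatid genes were at 527 and 130 in WAT antimiR-224 libraries 3 and 4 and at 1831 in WAT scramblemiR library 2. B cell genes were high in WAT antimiR-452 library 2, WAT scramblemiR library 2 and BAT antimiR-224 library 1. Fibroblast genes were high in library 1 of all 3 BAT groups and in BAT scramblemiR library 3.

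**Figure D1:**
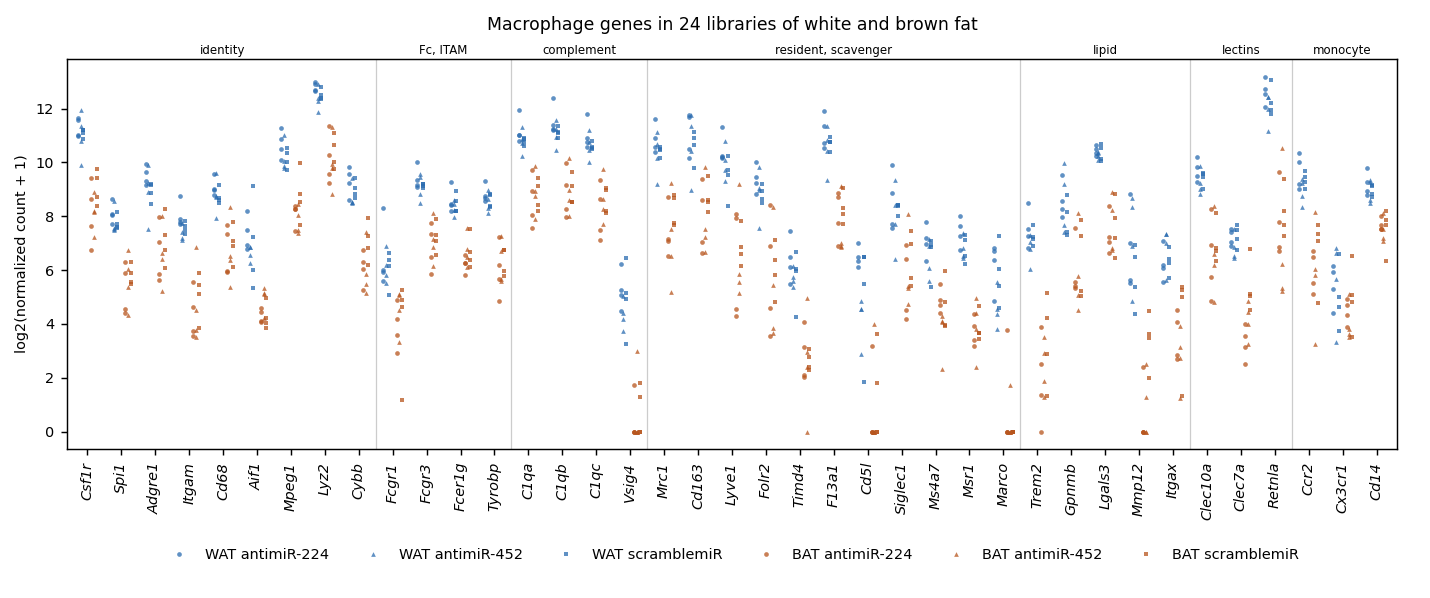
Each point is the log2(normalized count + 1) of one macrophage gene in one library, with all 24 libraries on one scale, WAT in blue left of BAT in orange and the treatments by symbol, and with genes in blocks by role. WAT points lie mostly above BAT points, Marco is at 0 in 10 of 12 BAT libraries, and the tissues overlap at Cx3cr1.

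Macrophage genes were more abundant in white than in brown fat under scramblemiR. Of 39 members, 35 were higher in WAT and 0 were lower at a limma adjusted p under 0.05. The 35 include 4 members with a BAT mean under 10, named below, which entered the test only through their WAT counts. Among all 16818 genes tested 42% were called, 22.1% higher and 19.9% lower in WAT under scramblemiR. The members' median log2 fold change, with these 4 included, was 2.13, against 0.08 over all genes tested. In 31 members every WAT library lay above every BAT library, an arrangement found in 21.4% of all genes. Fold changes compare log2(normalized count + 1) and so understate those of low genes. Levels in this comparison use size factors computed over the 8 control libraries.

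As RPKM, reads scaled to exon length and to all reads in genes, a scale that allows genes to be compared, Retnla was the most abundant member in WAT controls at 486 ± 198 (SD, n = 4), followed by Lyz2 at 256 ± 63.9, C1qb at 117 ± 25.9, C1qa at 96.7 ± 14.3 and C1qc at 46.0 ± 9.29. C1qb and C1qa overlapped within their SDs. In BAT controls Lyz2 came first at 43.0 ± 19.5, followed by Retnla at 21.8 ± 15.5, C1qb at 19.1 ± 8.17, C1qa at 17.9 ± 7.79 and C1qc at 8.31 ± 3.07, neighbours that all overlapped within their SDs. Retnla encodes the secreted protein RELM-alpha, and Lyz2 the lysozyme of phagocytes. The least abundant members in WAT were Cx3cr1 at 0.499 ± 0.426, Mmp12 at 0.543 ± 0.412 and Itgax at 0.977 ± 0.410. In BAT they were Marco at 0, Vsig4 at 0.0268 ± 0.0329 and Mmp12 at 0.0636 ± 0.0441.

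All 9 genes of general phagocyte identity were higher in WAT, with log2 fold changes of 1.39 to 2.65. Csf1r, the receptor for the growth factors CSF1 and IL-34, had normalized counts of 2175, 2336, 2319 and 1852 in WAT libraries 1 to 4 and 684, 334, 874 and 421 in BAT libraries 1 to 4 (log2 2.002 ± 0.28 SE, adjusted p 4.01e-04, limma). Adgre1, which encodes the surface receptor F4/80, had 577, 569, 461 and 344 in WAT and 156, 106, 311 and 66.5 in BAT (log2 1.80 ± 0.42 SE, adjusted p 0.00734). Cd68, a lysosomal membrane glycoprotein, had 407, 565, 359 and 381 in WAT and 135, 118, 217 and 68.0 in BAT (log2 1.76 ± 0.32 SE, adjusted p 0.00178). In these 3 genes the tissues did not overlap, and BAT library 3 was the highest of its group. Mpeg1, a pore-forming protein that attacks engulfed bacteria, had the smallest fold change among the called members, with 1039, 1463, 847 and 1277 in WAT and 448, 366, 1021 and 207 in BAT (log2 1.39 ± 0.43 SE, adjusted p 0.0282). Its tissues overlapped, since BAT library 3 lay above WAT library 3. Without WAT library 1, 2 or 4, or without BAT library 1 or 2, it fell short of the threshold, with log2 fold changes of 1.27 to 1.43. The other 5 had no overlap between the tissues. Spi1 encodes the transcription factor PU.1 (log2 1.93 ± 0.25 SE, adjusted p 2.58e-04). Itgam encodes the integrin chain CD11b (log2 2.48 ± 0.40 SE, adjusted p 9.47e-04). Lyz2 gave log2 2.13 ± 0.27 SE, adjusted p 2.53e-04, and Cybb, the catalytic subunit of the phagocyte NADPH oxidase, gave log2 1.92 ± 0.33 SE, adjusted p 0.00146. Aif1, the actin-binding protein Iba1, gave log2 2.65 ± 0.73 SE, adjusted p 0.0162. Its WAT libraries had 62.8, 553, 38.8 and 147, so that library 2, which was high in spermatid genes, stood far above the others. The part of spermatid RNA in the Aif1 value was not tested.

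Of the 4 genes for Fc receptors and their signalling chains, 3 were higher in WAT. Fcer1g, the chain through which several Fc receptors signal, had 292, 370.1, 293 and 485 in WAT and 99.3, 81.9, 183 and 69.5 in BAT (log2 1.79 ± 0.31 SE, adjusted p 0.00126, limma), without overlap. Tyrobp, the adaptor of TREM2 and other receptors, gave log2 2.26 ± 0.26 SE, adjusted p 1.45e-04, and Fcgr3, a low-affinity receptor for immunoglobulin G, gave log2 1.91 ± 0.25 SE, adjusted p 2.91e-04. Fcgr1, the high-affinity receptor, averaged 70.1 ± 27.8 in WAT and 22.7 ± 15.3 in BAT (SD, n = 4 each) and did not pass (adjusted p 0.0761, limma). WAT library 3, at 32.6, lay within the BAT range.

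All 4 complement genes were higher in WAT and none overlapped between the tissues. C1qa, 1 of the 3 chains of C1q, which tags debris for engulfment, had 1565, 1836, 1722 and 1924 in WAT and 548, 289, 688 and 340.0 in BAT (log2 1.999 ± 0.26 SE, adjusted p 2.54e-04, limma). The partner chains C1qb and C1qc gave log2 fold changes of 2.16 ± 0.24 and 1.998 ± 0.23 SE, values within 1 SE of each other. The genes lie side by side on the minus strand of chromosome 4, C1qb at chr4:136880129-136886187, C1qc at chr4:136889804-136893065 and C1qa at chr4:136895917-136898803 (GRCm38). Vsig4, a complement receptor of resident macrophages, had 34.7, 84.0, 29.5 and 8.48 in WAT and 2.48, 0, 1.43 and 0 in BAT (adjusted p 0.00325). Its BAT values rest on a few reads, and WAT library 4 was lowest in its own group.

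The 11 genes of resident and scavenger cells were all higher in WAT, with a median log2 fold change of 2.602. Among them Cd5l, Marco and Timd4 entered the test only through their WAT counts. Mrc1, the mannose receptor, had 1389, 1497, 1436 and 1132 in WAT and 409.8, 205, 439.7 and 214 in BAT (log2 2.18 ± 0.26 SE, adjusted p 1.86e-04, limma). Cd163, the receptor that takes up haemoglobin bound to haptoglobin, had 1930.1, 1574, 2229 and 877 in WAT and 721, 288, 367 and 393 in BAT (log2 1.91 ± 0.34 SE, adjusted p 0.00194). Both separated the tissues, and Cd163 was lowest in WAT library 4. Marco, a scavenger receptor for bacteria and particles, had 41.2, 152, 64.4 and 22.9 in WAT and 0 in all 4 BAT libraries (adjusted p 1.98e-04). Against a floor of 3 reads per BAT library it was at least 17.2-fold higher in WAT. Timd4, a receptor for phosphatidylserine on dying cells, had 60.8, 99.7, 64.4 and 17.8 in WAT and 7.45, 3.84, 4.28 and 5.91 in BAT (log2 3.08 ± 0.55 SE, adjusted p 0.00162). Cd5l, a protein secreted by macrophages, had 87.0, 86.7, 43.4 and 2.54 in WAT and 2.48, 0, 11.4 and 0 in BAT (log2 3.69 ± 1.20 SE, adjusted p 0.0317). Its groups overlapped, and it fell short of the threshold in 8 other settings, among them without WAT library 1, 2 or 3 or BAT library 2 or 4, where its log2 fold change was 3.23 to 3.55. Ms4a7, a membrane protein of macrophages, had 134, 113, 40.3 and 119 in WAT and 27.3, 14.1, 61.4 and 14.8 in BAT (log2 1.88 ± 0.53 SE, adjusted p 0.0178), with WAT library 3 below BAT library 3. It too fell short without WAT library 1 or without BAT library 2 or 4. Of the other 5, all without overlap, Lyve1, a hyaluronan receptor, gave log2 2.602 ± 0.44 SE, adjusted p 0.00147, and Folr2, a folate receptor, gave log2 2.79 ± 0.43 SE, adjusted p 7.77e-04. F13a1, the catalytic subunit of clotting factor XIII, gave log2 2.41 ± 0.26 SE, adjusted p 9.37e-05. Siglec1, a receptor for sialic acids, gave log2 1.91 ± 0.42 SE, adjusted p 0.00531, and the scavenger receptor Msr1 gave log2 2.92 ± 0.37 SE, adjusted p 2.56e-04. The members with a BAT control mean under 10 were Cd5l, Marco, Timd4 and Vsig4, so their calls rest on their WAT counts. Of the other 35 members, 31 were called.

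Of the 5 genes of lipid-associated macrophages, 3 were higher in WAT. Trem2, a receptor for lipids and cell debris, had 149.8, 199, 141 and 117 in WAT and 17.4, 6.40, 34.3 and 1.48 in BAT (log2 3.85 ± 0.71 SE, adjusted p 0.00215, limma). Lgals3, which encodes galectin-3, gave log2 2.73 ± 0.45 SE, adjusted p 0.00148, and Mmp12, the macrophage elastase, had 40.6, 119, 19.4 and 87.4 in WAT and 11.2, 10.2, 21.4 and 2.96 in BAT (log2 2.38 ± 0.67 SE, adjusted p 0.0172). Trem2 and Lgals3 separated the tissues, and Mmp12 overlapped at WAT library 3. Gpnmb, a lysosome-linked glycoprotein, averaged 260.1 ± 128 in WAT and 114 ± 96.5 in BAT (SD, n = 4 each; adjusted p 0.0945, limma). Itgax, the integrin chain CD11c, had 50.4, 113, 76.0 and 83.1 in WAT and 39.7, 37.1, 31.4 and 1.48 in BAT (adjusted p 0.0765, limma). Its tissues did not overlap, and BAT library 4 was far below the other BAT libraries.

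The 3 lectins and genes of alternative activation were higher in WAT. Retnla, named above, had 3544, 3932, 8499 and 4681 in WAT and 658, 294, 203 and 155 in BAT (log2 4.11 ± 0.45 SE, adjusted p 1.86e-04, limma). WAT library 3 was the highest, and no BAT library came near the WAT range. Clec10a, a lectin for galactose-type sugars, gave log2 2.39 ± 0.34 SE, adjusted p 5.26e-04. Clec7a, the fungal glucan receptor dectin-1, had 139, 177, 105 and 202 in WAT and 33.5, 32.0, 109.9 and 22.2 in BAT (log2 1.88 ± 0.46 SE, adjusted p 0.00833), with BAT library 3 just above WAT library 3.

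Of the 3 monocyte genes, 2 were higher in WAT. Ccr2, the receptor that draws monocytes into tissue, had 513, 610.4, 814 and 702 in WAT and 160.2, 134, 206 and 26.6 in BAT (log2 2.63 ± 0.57 SE, adjusted p 0.00639, limma). Cd14, a co-receptor for bacterial endotoxin, had 417, 546, 576 and 445 in WAT and 289, 80.6, 204 and 232 in BAT (log2 1.42 ± 0.35 SE, adjusted p 0.00944). Neither overlapped between the tissues. Cx3cr1, the fractalkine receptor, had 23.5, 30.7, 12.4 and 94.2 in WAT and 32.3, 26.9, 91.4 and 10.3 in BAT. Both ranges covered nearly the same span, and its log2 fold change was 0.01 ± 0.72 SE (adjusted p 0.994, limma).

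**Figure D2:**
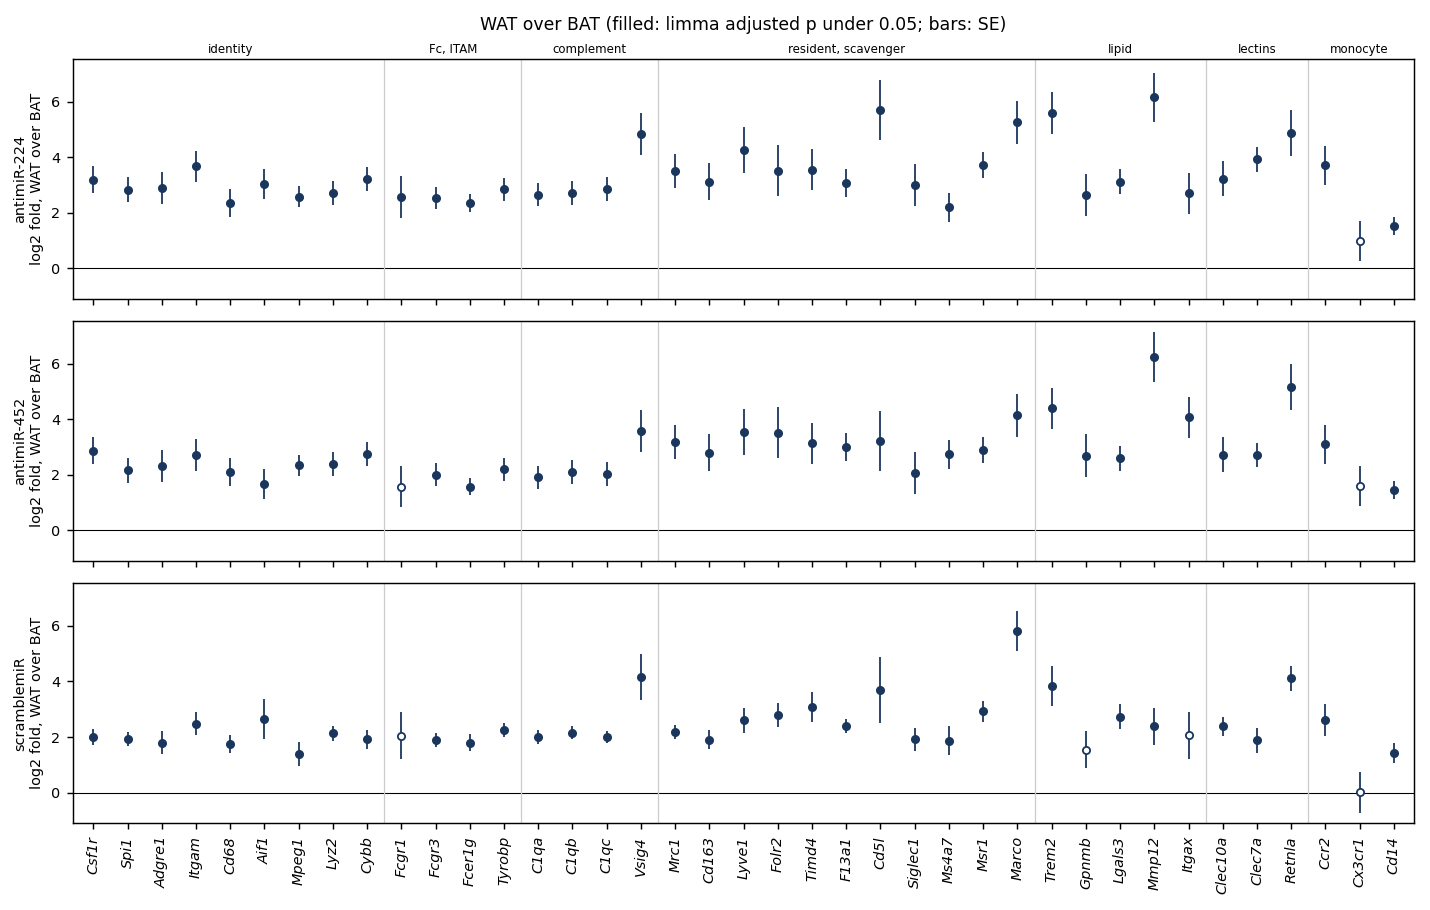
Log2 fold changes of WAT over BAT with their standard errors for the 39 macrophage genes, with one panel for each treatment and with filled points where the limma adjusted p is under 0.05. All points lie above 0, 38 are filled under antimiR-224, 37 under antimiR-452 and 35 under scramblemiR, and Cx3cr1 is open in all 3 panels.

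Most members were called under each of 3 scalings, although the size of the difference depended on the scaling. Quantile normalization gave 33 members called and a median of 2.146. With scaling to reads in genes the median over all genes was 0.61, against 0.08 with median ratios, the share of called genes that were higher in WAT was 81.6%, against 52.6%, and 38 members were called. Relative to the median of all genes, the members' median was 2.06 with median ratios and 2.04 with reads in genes. Without the BAT libraries high in fibroblast genes 36 members were called with a median of 2.74, and without WAT library 2, high in spermatid and B cell genes, 33 were called with a median of 1.98.

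Markers of other cells differed between the control tissues as well. In WAT, 6 of 6 mesothelium, 4 of 6 B cell, 5 of 8 dendritic cell, 4 of 7 fibroblast and 4 of 6 simple epithelium genes tested were higher. For neutrophils 1 of 4 was higher, and no gene of these lists was lower. Among all genes tested 22.1% were called higher and 19.9% lower, so the neutrophil share was close to that of all genes. All 6 brown adipocyte genes were lower in WAT. The summed normalized count of the mesothelium list was 1679 to 11113 in WAT and 85.7 to 174.7 in BAT, where Upk1b and Wt1 were at 0. The sum of the 8 dendritic cell genes was 839 to 1319 in WAT and 691 to 1350.4 in BAT, and that of 9 neutrophil genes 108 to 326 in WAT and 22.5 to 148 in BAT, where Ly6g was at 0. Their part in the macrophage result was not tested.

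The tissue difference was also present under both inhibitors, on a scale common to all 24 libraries. Under antimiR-224 38 of 39 members were higher in WAT, where 47.5% of 16558 genes tested were called and 27.4% were called higher, and the median was 3.06. All 4 WAT libraries lay above all 4 BAT libraries in 38 members, against 26.4% of all genes. Under antimiR-452 37 members were higher, where 44.5% of genes were called and 25.3% were called higher, and the median was 2.71. There 30 members had no overlap between the tissues, against 18% of all genes. Without the libraries high in epithelium genes, which leaves 1 WAT antimiR-452 library, 16 members were called under antimiR-452. Marco had 81.2, 28.01, 113 and 104 in WAT and 12.6, 0, 0 and 0 in BAT under antimiR-224. Under antimiR-452 it had 22.7, 46.5, 13.2 and 19.8 in WAT and 2.33, 0, 0 and 0 in BAT, so BAT library 1 alone held reads in each inhibitor group. Mmp12 had 407, 118, 323 and 28.1 in WAT and 4.66, 0, 1.42 and 0 in BAT under antimiR-452, where its BAT reads were too few for a fold to be read. The members with a BAT mean under 10 numbered 7 under antimiR-224 and 6 under antimiR-452, Mmp12 and Marco among them in both, so their calls rest on their WAT counts. Of the others, 31 of 32 were called under antimiR-224 and 31 of 33 under antimiR-452. The members not called were Cx3cr1, with log2 0.99 ± 0.72 SE under antimiR-224 (adjusted p 0.267) and 1.60 ± 0.72 under antimiR-452 (adjusted p 0.0767, limma), and Fcgr1 under antimiR-452 (adjusted p 0.087, limma).

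In WAT after antimiR-224, no macrophage gene passed the adjusted threshold, and most lay slightly above scramblemiR. limma called 0 of 39 members and 0% of 17762 genes, with 2 members and 6.23% of genes at an unadjusted p under 0.05, and the authors' deposited table gave 0 members and 1.55% of genes an unadjusted p under 0.05 and 0.00343% of genes an adjusted p under 0.05. Of the members, 37 had a log2 fold change above 0, against 52.8% of all genes, with a median of 0.40 against 0.02. Levels in the comparisons of an inhibitor with scramblemiR use the size factors of the deposited table concerned. Adgre1 had 857, 772, 1074 and 1288 with antimiR-224 and 781, 784, 619 and 466 with scramblemiR (log2 0.59 ± 0.22 SE, unadjusted p 0.0231, adjusted p 0.797, limma). Lyve1 had 1595, 1534, 1610.0 and 3351 with antimiR-224 and 996, 1131, 1619 and 448 with scramblemiR (log2 1.003 ± 0.40 SE, unadjusted p 0.0364, adjusted p 0.797, limma). Both groups overlapped in each gene, as they did for every member, against 1.79% of all genes with every antimiR-224 library above every control and 1.74% with every one below. In both genes antimiR-224 library 4 was the highest. That library was the highest of all 12 WAT libraries for 26 of the 39 members, and without it the median was 0.18. The 4 complement genes had log2 fold changes of 0.32 to 0.43, and the 11 resident and scavenger genes 0.21 to 1.44, the upper end being Cd5l (unadjusted p 0.174). Itgax and Clec7a lay below 0, at -0.09 and -0.05.

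Simple epithelium genes were high in libraries 1 and 2 of this group and spermatid genes in libraries 3 and 4, and no library of the group was free of both. The sum of 7 simple epithelium genes was 480.0 to 10056 with antimiR-224 and 252 to 1413 with scramblemiR, and the sum of 7 spermatid genes was 108 to 4758 with antimiR-224 and 10.9 to 15942 with scramblemiR. Without the epithelium-high libraries the members' median was 0.70, and without the spermatid-high ones it was 0.18. Fibroblast and progenitor genes also lay above scramblemiR. The sum of the 4 of 7 such genes measured in all libraries was 5607 to 7594 with antimiR-224 and 2699.98 to 5399 with scramblemiR, without overlap. All 4 had a log2 fold change above 0, with a median of 0.47, 1 had an unadjusted p under 0.05 and 0 were called (limma). The part of all these cells in the macrophage values was not tested.

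In WAT after antimiR-452, macrophage genes lay on both sides of scramblemiR. limma called 0 of 39 members and 0% of 17672 genes, with 0 members and 4.46% of genes at an unadjusted p under 0.05, and the authors' deposited table gave 0 members and 2.41% of genes an unadjusted p under 0.05. Of the members, 28 lay below 0 in limma, against 55.1% of all genes. In the authors' deposited table, which compares arithmetic means, 21 of 39 lay below 0, against 16770 of 29079 genes, with a median log2 ratio of -0.02. The limma median was -0.09, against -0.03 over all genes. It was 0.12 without antimiR-452 library 2, the lowest WAT library for 20 members and one of those high in epithelium and B cell genes, and -0.27 without library 1. Without the libraries high in B cell genes, antimiR-452 library 2 and scramblemiR library 2, it was 0.21. Marco, the member with the smallest p, had 30.3, 62.7, 17.9 and 26.6 with antimiR-452 and 55.8, 210.1, 87.2 and 31.3 with scramblemiR (log2 -1.26 ± 0.60 SE, unadjusted p 0.0652, adjusted p 0.998, limma). The groups overlapped, with scramblemiR library 2 far above the rest. Mmp12 had 544, 159, 439 and 37.7 with antimiR-452 and 54.9, 165, 26.3 and 119 with scramblemiR (log2 1.403 ± 0.87 SE, unadjusted p 0.143, limma). On the scale of all 24 libraries the 5 WAT libraries high in epithelium genes held Mmp12 at 457, 129, 407, 118 and 323, and the other 7 at 19.5 to 121. The part of epithelium in the Mmp12 values was not tested. Of the erythroid genes, 6 of 6 had an unadjusted p under 0.05 and 0 were called, with a median log2 fold change of -2.63 (limma). The sum of the 5 of 6 such genes measured in all libraries was 1146 to 3369.98 with antimiR-452 and 5204 to 24133 with scramblemiR. The part of erythroid cells in the macrophage values was not tested.

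In BAT after antimiR-224, most macrophage genes lay below scramblemiR and none passed. limma tested 33 members, called 0 of them and 0% of 14358 genes, and gave 2 members and 5.95% of genes an unadjusted p under 0.05. Of the 33, 30 lay below 0, against 58.2% of all genes, with a median of -0.47 against -0.07. Vsig4, Timd4, Cd5l, Marco, Trem2 and Mmp12 had a mean under 10 in each BAT comparison and were not tested. Clec7a had 10.4, 8.35, 3.40 and 5.83 with antimiR-224 and 25.0, 24.2, 81.5 and 16.3 with scramblemiR (log2 -2.05 ± 0.55 SE, unadjusted p 0.00445, adjusted p 0.733, limma). All 4 antimiR-224 libraries lay below all 4 controls, an arrangement found in 1.25% of all genes and in no other member tested. Clec7a averaged under 10 with antimiR-224, so it entered the test only through its scramblemiR counts, and the size of its fold is uncertain. In the authors' deposited table Clec7a had means of 6.99 with antimiR-224 and 36.7 with scramblemiR, a log2 ratio of -2.39 and an unadjusted p of 0.0389. Cybb had 55.1, 50.1, 27.2 and 78.1 with antimiR-224 and 114, 85.1, 179 and 53.3 with scramblemiR (log2 -0.98 ± 0.43 SE, unadjusted p 0.0458, adjusted p 0.733, limma), with some overlap. Mmp12 had 0, 3.34, 0 and 0 with antimiR-224 and 8.32, 7.74, 15.9 and 2.17 with scramblemiR. Its unadjusted p was 0.00507 in the authors' deposited table, where the means were 0.835 with antimiR-224 and 8.53 with scramblemiR. In that table, the authors' deposited table of this comparison, 1.15% of genes had an unadjusted p under 0.05, and every adjusted p of a member was 1.

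In BAT after antimiR-452, macrophage genes again lay mostly below scramblemiR without passing. limma called 0 of 33 members tested and 0% of 14468 genes, with 1 member and 3.88% of genes at an unadjusted p under 0.05. Of the 33, 27 lay below 0, against 54.8% of all genes, with a median of -0.50 against -0.05. In the authors' deposited table, which compares arithmetic means and covers all 39, only 21 lay below 0 and the median log2 ratio was -0.07. Csf1r had 354, 111, 203 and 224.3 with antimiR-452 and 513, 254, 648 and 316 with scramblemiR (log2 -0.97 ± 0.41 SE, unadjusted p 0.0422, adjusted p 0.999, limma). The groups overlapped at antimiR-452 library 1. Clec7a had 20.6, 15.5, 6.02 and 11.4 with antimiR-452 and 25.1, 24.3, 81.5 and 16.6 with scramblemiR (log2 -1.24 ± 0.57 SE, unadjusted p 0.0593, limma), again with 1 overlapping library. Itgax had 10.3, 5.83, 4.01 and 1.03 with antimiR-452 and 29.8, 28.2, 23.3 and 1.11 with scramblemiR (log2 -1.47 ± 0.97 SE, unadjusted p 0.164, limma). Its antimiR-452 libraries were low, and so was scramblemiR library 4, so Itgax entered the test only through its other scramblemiR counts. In the authors' deposited table Itgax had an unadjusted p of 0.0240 and Mmp12 one of 0.0142, with means of 1.11 with antimiR-452 and 8.56 with scramblemiR for Mmp12. Both adjusted p-values were 1 in the authors' deposited table, where 0.499% of genes had an unadjusted p under 0.05. The lectins had log2 fold changes of -1.32 to -0.52, whereas C1qa, C1qb and C1qc lay between -0.03 and 0.06.

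**Figure D3:**
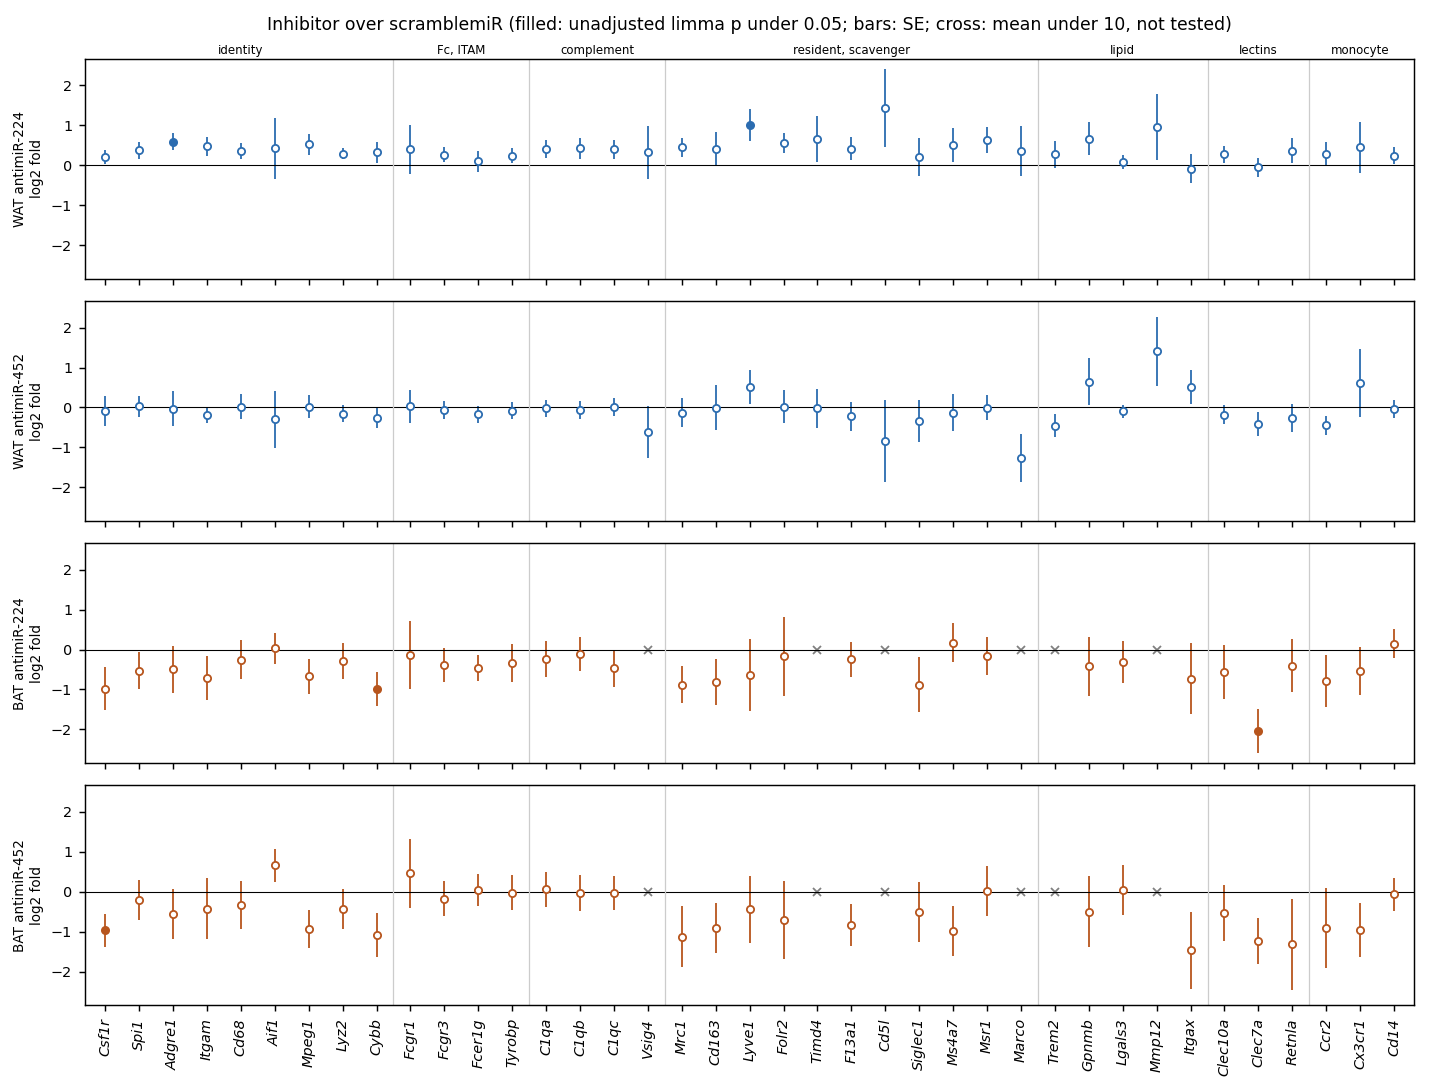
Log2 fold changes of each inhibitor over scramblemiR with standard errors for the 39 macrophage genes, with one panel for each tissue and inhibitor, filled points for an unadjusted limma p under 0.05 and crosses for genes not tested. Of the points, 37 lie above 0 in WAT after antimiR-224, and 30 and 27 of 33 lie below 0 in BAT after antimiR-224 and antimiR-452, with few filled and none past an adjusted p of 0.05.

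Single libraries moved these BAT values. The antimiR-452 library 1 was the highest of all 12 BAT libraries for 23 of the 39 members, and without it the members' median in that comparison was -1.11. It was -0.12 without antimiR-452 library 2 and -0.18 without scramblemiR library 1, and other single libraries left values of -0.30 to -0.67. In the antimiR-224 comparison the median was -0.16 without antimiR-224 library 2, -0.23 without antimiR-224 library 3 or without scramblemiR library 3, and -0.73 without antimiR-224 library 1. All of these medians were below 0. Both BAT comparisons share the same 4 scramblemiR libraries, as do both WAT comparisons, so that a shift in the controls moves both.

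**Figure D4:**
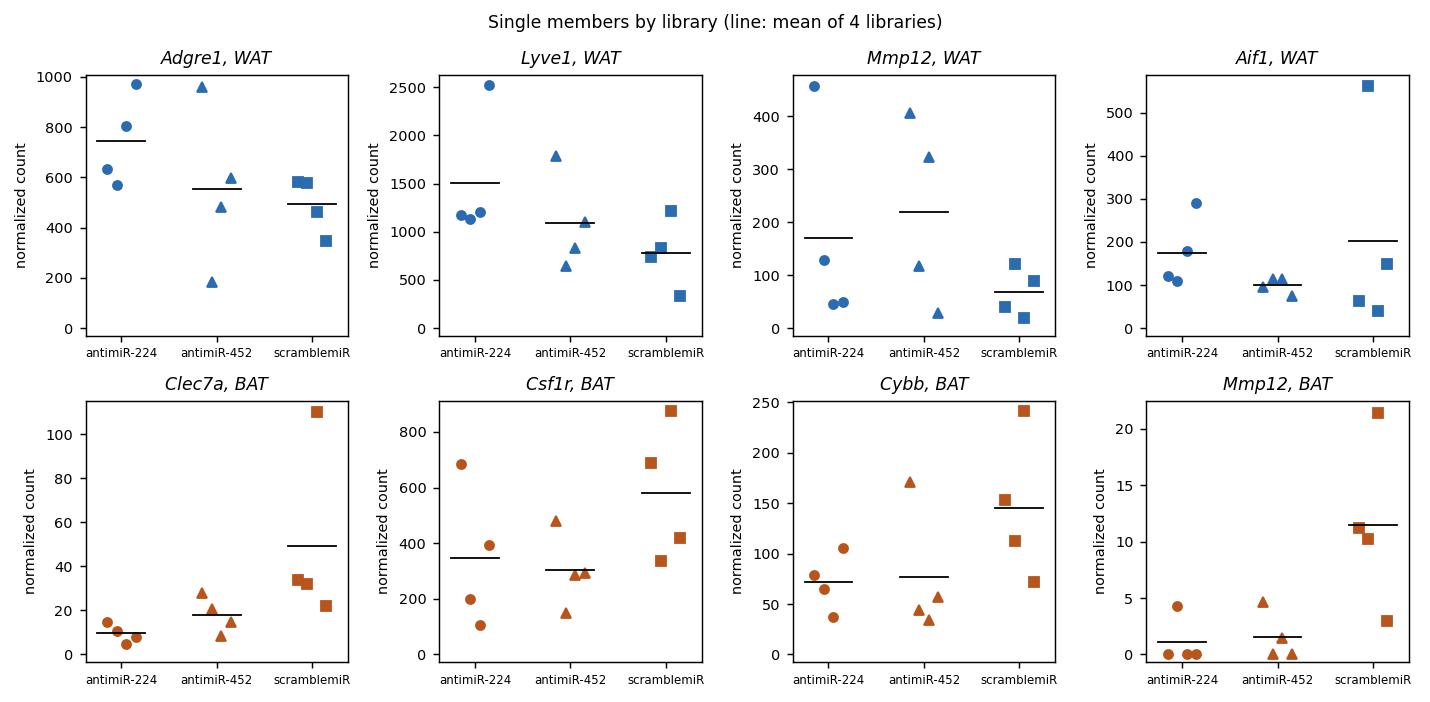
Normalized counts on the scale of all 24 libraries for 7 macrophage genes in the tissue named above each panel, with Mmp12 in both, where each point is a library and each line the mean of 4 libraries. Clec7a in BAT has every antimiR-224 library below every scramblemiR library, Aif1 in WAT has 1 scramblemiR library far above the rest, and Mmp12 in BAT is at 0 in 3 of 4 antimiR-224 libraries.

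The difference between the tissues in the response to each inhibitor was tested over all 24 libraries, as the log2 fold change in WAT minus that in BAT. limma called 0 members and 0% of 16558 genes for antimiR-224, with 4 members and 3.33% of genes at an unadjusted p under 0.05, and 0 members and 0% of genes for antimiR-452, with 1 member and 5.86% of genes. For antimiR-224 the 4 were Clec7a (2.02 ± 0.62 SE, unadjusted p 0.00359), Mpeg1 (1.18 ± 0.55, p 0.0439), Cybb (1.29 ± 0.61, p 0.0473) and Mmp12, each with a limma adjusted p of 0.875. For antimiR-452 it was Mmp12 (limma adjusted p 0.801). Mmp12, too low to test within BAT, entered both tests through its WAT counts, so no difference is given for it. Clec7a had a BAT mean under 10 with antimiR-224, so its difference rests on its counts in the other groups. Thus no member was shown to respond differently in WAT and BAT.

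Libraries of a tissue differed in the macrophage genes as a block. The geometric mean of the 39 members was 379.8 to 664 with antimiR-224, 237 to 529 with antimiR-452 and 306 to 467 with scramblemiR in WAT. In BAT it was 30.3 to 91.7 with antimiR-224, 29.0 to 133 with antimiR-452 and 41.3 to 106 with scramblemiR. The 4 BAT libraries with the highest macrophage means, 91.7 to 133, were also the 4 with the highest fibroblast means, at 485.7 to 1595, against 56.6 or less and 278 or less in the other 8. The sum of 4 fibroblast genes was 1029.6 to 3499 with antimiR-224, 677 to 8049.8 with antimiR-452 and 1252 to 3168 with scramblemiR in BAT, and none of them was at 0 throughout. The part of fibroblasts in the macrophage values was not tested. In WAT, antimiR-224 library 4 had the highest macrophage mean and antimiR-452 library 2 the lowest.

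**Figure D5:**
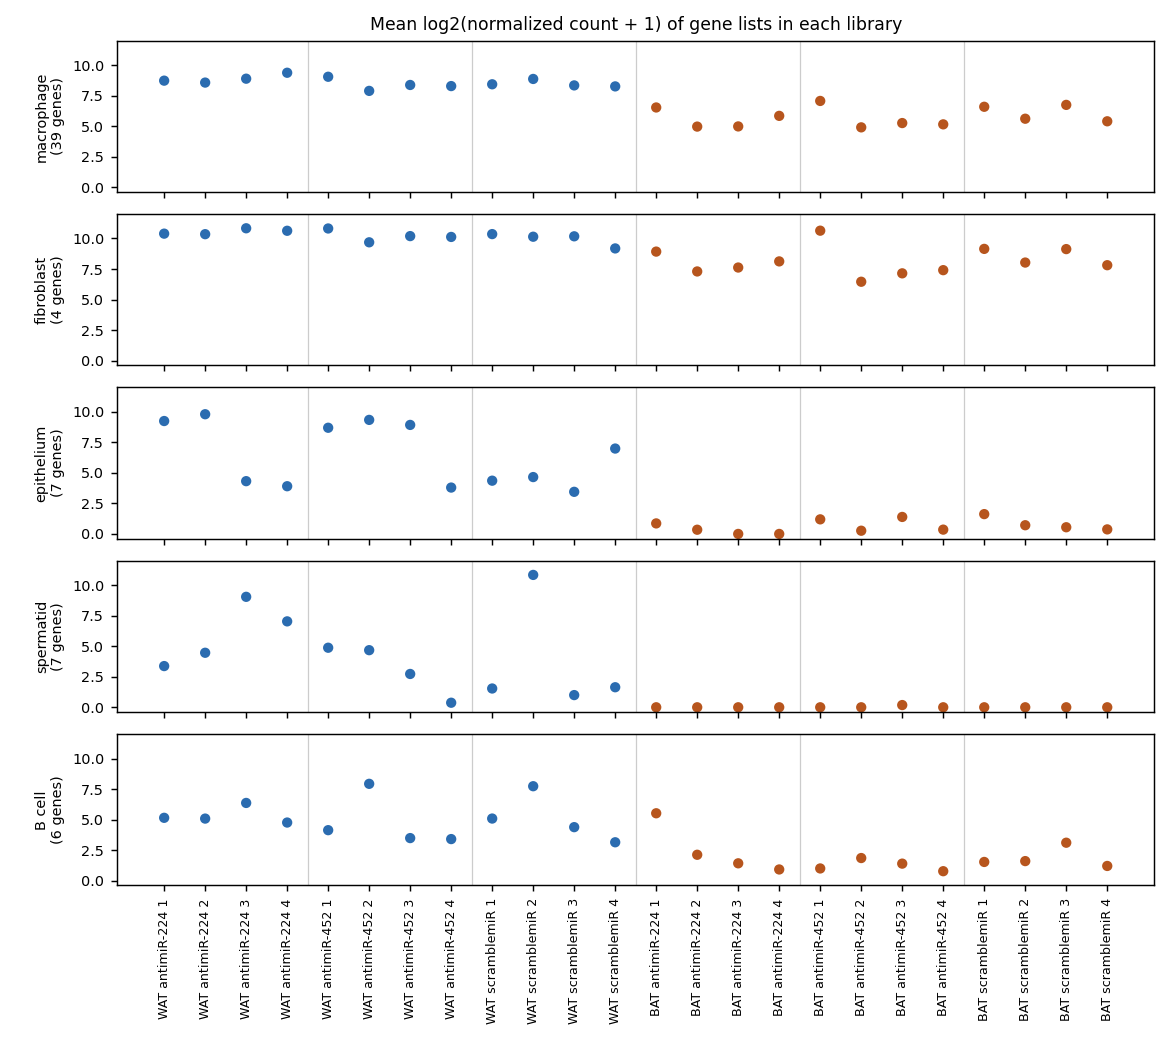
Mean log2(normalized count + 1) of the macrophage genes and of 4 marker lists in each of the 24 libraries, with WAT in blue and BAT in orange. Macrophage genes are higher in every WAT library than in any BAT library, and fibroblast genes peak in the same BAT libraries as macrophage genes. Epithelium genes are high in several WAT inhibitor libraries, and spermatid and B cell genes in some WAT libraries. B cell genes are also high in a BAT antimiR-224 library.

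The ratios between the 3 chains of C1q varied less over WAT libraries than over BAT libraries, where the counts were lower. The highest ratio to C1qa was 1.24 times the lowest for C1qb and 1.28 times for C1qc in WAT. In BAT it was 1.49 times for C1qb and 1.83 times for C1qc, and Tyrobp at 1.84 and Lyz2 at 1.89 were close to C1qc. The ratio of the C1qb to the C1qa count was 1.13 to 1.401 over the 12 WAT libraries and 0.911 to 1.35 over the 12 BAT libraries, and the ratio of C1qc to C1qa 0.7496 to 0.958 over WAT and 0.524 to 0.960 over BAT libraries. These ratios are not corrected for length, so only their spread can be compared. Lower counts give noisier ratios, and C1qa had 1565 to 1924 normalized counts in WAT controls and 289 to 688 in BAT controls. The part of count noise in the wider BAT spread was not tested. The ratio of Retnla to C1qa ran from 1.94 to 4.94 in WAT and from 0.0854 to 1.60 in BAT, without overlap between the tissues. The widest ranges against C1qa in WAT were those of Cd5l, with a highest ratio 53.8 times the lowest, and Mmp12, with one 22.7 times the lowest. WAT scramblemiR library 4, with Cd5l at 2.54 normalized counts, set the lowest Cd5l ratio, so the Cd5l range rests on a few reads. Zero reads were found in BAT for Marco in 10 of 12 libraries, Vsig4 and Cd5l in 8, Mmp12 in 5 and Timd4 and Trem2 in 1, and for no member in WAT.

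Genes that act with the macrophage list differed between the control tissues to varying degrees. Among all 16818 genes tested 42% were called, 22.1% higher and 19.9% lower in WAT. Of 14 phagocyte signalling genes, 13 were higher in WAT, among them the integrin chain Itgb2 at 540.0 ± 165 in WAT and 143 ± 41.7 in BAT (SD, n = 4 each; log2 1.91, adjusted p 4.96e-04, limma) and the kinase Syk at 692 ± 182 in WAT and 159.6 ± 71.7 in BAT (log2 2.20, adjusted p 6.48e-04). Of 7 growth and recruitment signals tested, 5 were higher. Csf1, the main growth factor of macrophages, averaged 870.0 ± 234 in WAT and 294 ± 74.4 in BAT (log2 1.55, adjusted p 0.001, limma), and Il34, the other ligand of the Csf1r product, 381 ± 79.3 in WAT and 153 ± 19.7 in BAT (log2 1.30, adjusted p 5.43e-04). Both ligands were thus higher in the tissue in which their receptor was, and a link between them was not tested. Of 8 inflammatory products tested, 4 were higher and 1 lower, with Tlr4 at 469 ± 92.3 in WAT and 154 ± 46.8 in BAT (log2 1.62, adjusted p 4.40e-04, limma) and Tlr2 at 155 ± 52.4 in WAT and 52.5 ± 23.0 in BAT (log2 1.56, adjusted p 0.010), both receptors for microbial products.

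Of 9 genes of alternative activation tested, 4 were higher in WAT, where 22.1% of all genes were called higher and 19.9% lower. Mgl2, a lectin closely related to Clec10a, averaged 396 ± 40.1 in WAT and 129 ± 30.9 in BAT (SD, n = 4 each; log2 1.63, adjusted p 1.82e-04, limma), and Arg1, arginase, 41.0 ± 31.2 in WAT and 0.621 ± 1.24 in BAT (adjusted p 0.00197). Of 16 lysosome and lipid genes, 6 were higher and 2 lower. Apoe, the lipid carrier, averaged 86017 ± 8243 in WAT and 20004 ± 5332 in BAT (log2 2.13, adjusted p 9.50e-05, limma), and Cd63, a lysosomal membrane protein, 1251 ± 238 in WAT and 322 ± 104 in BAT (log2 1.99, adjusted p 1.38e-04). The 9 myeloid transcription factors tested were divided, with 2 higher and 2 lower, shares close to those of all genes. Cebpb, a factor of myeloid and fat cell differentiation, averaged 486 ± 152 in WAT and 5144 ± 1674 in BAT (log2 -3.41, adjusted p 3.39e-05, limma). Cebpb was thus lower in the tissue in which Spi1 was higher, and which cells its RNA came from was not tested.

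In the comparisons with scramblemiR no gene of these 6 lists passed. In BAT after antimiR-224 Ptprc, the leukocyte surface phosphatase CD45, averaged 58.3 ± 22.5 with antimiR-224 and 121 ± 45.2 with scramblemiR (SD, n = 4 each; log2 -1.03, unadjusted p 0.0310, adjusted p 0.733, limma). In BAT after antimiR-452 Dock2, an activator of leukocyte migration, averaged 22.3 ± 13.2 with antimiR-452 and 51.0 ± 26.8 with scramblemiR (log2 -1.15, unadjusted p 0.0473, adjusted p 0.999, limma). In WAT after antimiR-452 Il34 averaged 869.5 ± 218 with antimiR-452 and 520.3 ± 107 with scramblemiR (log2 0.73, unadjusted p 0.00747, adjusted p 0.998, limma). In WAT after antimiR-224 Cd9, a membrane protein, averaged 1475 ± 410 with antimiR-224 and 929 ± 220.1 with scramblemiR (log2 0.66, unadjusted p 0.0220, adjusted p 0.797, limma). Each of these was the first or second gene of its list by p. The other genes so ranked and reported here had unadjusted p-values of 0.0215 (Fabp5 in WAT after antimiR-224) or more.

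Some counts carry an uncertainty from the gene models. Exons of 6 of the 39 members overlap those of another gene. Itgam shares 68.7% of its exon bases with Gm49368 on the same strand, Folr2 63.1% with Gm10602 on the opposite strand and Csf1r 15.1% with Hmgxb3 on the opposite strand. The library kit keeps the strand, but whether counting used it was not stated. Lyz2 and Clec10a have close relatives, Lyz1 and Mgl2, from which reads may be hard to separate.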

How the data were processed

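Messenger RNA of WAT and BAT was selected with oligo-dT and sequenced from directional libraries, per the labels. The authors deposited 4 tables, 1 for each tissue and inhibitor, made with DESeq 1.10.1 in R 2.15.3 on GRCm38.p4, per the submitters' processing notes. The aligner and counter were not given in the sources used. Each deposited table holds a normalized signal, the mean over 4 libraries of counts divided by size factors, for scramblemiR and for the inhibitor, and their mean. The ratio of these means, its log2 value, a p-value and an adjusted p-value from DESeq were also computed by the authors, and a deposited score ranks the genes.

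The means carry 15 digits, and only whole reads in each of 4 libraries reproduce such a mean. Reads were recovered on that basis, for 100% of genes in the controls and 99.16% to 99.52% in the inhibitor groups. No gene above a mean of 15000 was decoded in an inhibitor group, and where several solutions remained the one that gave the deposited p was taken. The decoding was checked on simulated data. Recovered libraries cannot be tied to the replicate numbers of the labels. Some numbers in the file headers recur in both tissues, so tissues may come from the same mice, and they were treated as independent. Control depth was 16960694 to 27935908 reads in genes, and the number of libraries, 4 per group, limits the precision.

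Genes with a mean of at least 10 were compared on log2(normalized count + 1) with limma 3.58.1 (trend and robust variance, R 4.3.3), and p-values were adjusted by Benjamini-Hochberg over all genes tested at 0.05. Members and lists were chosen with earlier results of these data known. Per-library values are given for members with an unadjusted p under 0.05 in an inhibitor comparison, for the 6 largest and the 6 smallest called tissue differences and for 8 well-known markers, and other members are named with their results. Of the pathway lists, the 2 genes with the smallest p were eligible, and a gene so chosen is not reported here. Alternatives were other pseudocounts, filters, variance settings and scalings, and leaving out libraries.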

Additional observations from a re-analysis of the deposited data

Results flagged for a closer look

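Sets of 4 libraries, 1 set for each member and group, were examined with Dixon's gap test. In 32 of 234 sets a single library lay farther from the other 3 than the 95% critical value of this test allows. Values are normalized counts on the scale of all 24 libraries. The chance rate of about 1 in 20 assumes normally distributed values, which counts are not, so the 32 cannot be judged against it. Where 3 libraries of a set held no reads, the remaining library was flagged whatever its level. That was so for Vsig4, Cd5l and Marco in BAT under each inhibitor and for Mmp12 in BAT after antimiR-224. Members of a block share a library, so the sets are not independent. In BAT after antimiR-452 library 1 was the high one, for Itgam at 114, Cybb at 171, Vsig4 at 7.0, Cd163 at 913, Lyve1 at 589, Folr2 at 324, F13a1 at 563, Cd5l at 15.2, Siglec1 at 269, Marco at 2.33, Gpnmb at 280.0 and Retnla at 1494. Library 4 of that group was the high one for Cx3cr1 at 33.9. In BAT after antimiR-224 library 1 was the high one for Vsig4 at 2.28, Cd5l at 7.99, Marco at 12.6 and Gpnmb at 189. In that group library 2 stood apart for Mmp12 at 4.34, library 3 for Mpeg1 at 176 and library 4 for Mrc1 at 415. In BAT with scramblemiR library 3 stood apart for Msr1 at 24.3 and Clec7a at 110.0, and library 1 for Clec10a at 280.0.

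In WAT after antimiR-224 library 4 stood apart for Itgam at 436, Fcgr1 at 318, C1qa at 3964, C1qb at 5435 and Lyve1 at 2523. In WAT after antimiR-452 library 1 stood apart for Spi1 at 375, Mpeg1 at 2087 and Cybb at 680.0. In WAT with scramblemiR library 3 stood apart for Siglec1 at 257. The BAT libraries numbered 1 were also among the 4 BAT libraries with the highest fibroblast marker means, and the part of fibroblasts in these values was not tested.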

How the results depend on the processing

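No called value changed direction. In BAT after antimiR-452 the median from the authors' deposited table was -0.07. Without the libraries high in epithelium genes the members' median in WAT after antimiR-224 was 0.70, and under antimiR-452, where this leaves 1 WAT library assumed to vary like the other groups, 16 members were called between the tissues. Between the control tissues the median was 2.74 without the libraries high in fibroblast genes and 2.66 with scaling to reads in genes. Leaving out 1 library at a time gave medians of 0.18 to 0.51 in WAT after antimiR-224, -0.27 to 0.12 in WAT after antimiR-452, -0.73 to -0.16 in BAT after antimiR-224, -1.11 to -0.12 in BAT after antimiR-452 and 1.92 to 2.37 between the control tissues. The members called between tissues numbered 38 under antimiR-224 in each such fit, 35 to 38 under antimiR-452 and 32 to 35 under scramblemiR, and 0 members were called in any inhibitor comparison or difference of responses. Cd5l missed the adjusted threshold in 8 settings, Mpeg1 in 7 and Ms4a7 in 4. The causes were not tested. Sets of libraries high in epithelium, spermatid, B cell or fibroblast genes were chosen after seeing the data. No paired analysis was possible because the recovered libraries cannot be tied to the replicate numbers of the labels. Members with a mean under 10 in BAT were too low to test at this depth.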

Other observations

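Members were also set against the rest of the macrophage list. Each member was expressed relative to the mean of the 39 members in the same library, on the log2 scale and with 12 libraries of each tissue on the common scale. These values are a description with SDs over libraries of all 3 treatments, no test was made of them, and the tissues overlapped in all 39 members. Retnla stood at 3.70 ± 0.46 over WAT libraries and 1.81 ± 1.06 over BAT libraries, and Trem2 at -1.40 ± 0.28 over WAT libraries and -3.18 ± 0.96 over BAT libraries. Of the 3 monocyte genes, Cd14 stood at 0.44 ± 0.37 over WAT libraries and 1.81 ± 0.81 over BAT libraries and Cx3cr1 at -3.24 ± 1.25 over WAT libraries and -1.27 ± 1.09 over BAT libraries, both on average lower in WAT, and Ccr2 at 0.72 ± 0.40 over WAT libraries and 0.41 ± 1.20 over BAT libraries, on average higher in WAT. Genes with few reads in BAT are compressed by the added 1, which bears on Trem2 and Cx3cr1.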
